A study of Mus musculus with 12 samples.

Results

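Chemokines are small secreted proteins that guide leukocytes along concentration gradients, and chemokine receptors are the G protein-coupled receptors on the responding cells. CC and CXC ligands are named after the spacing of their first cysteines, and several ligands usually share a receptor. Atypical receptors bind chemokines without G protein signalling and remove them from the tissue. In the heart, resident macrophages, fibroblasts, endothelial cells and cardiomyocytes can all produce chemokines, and incoming monocytes and neutrophils carry many of the receptors.

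The genes described here are 53 chemokine and chemokine receptor genes, picked by their symbols (Ccl, Cxcl, Xcl or Cx3cl1 for ligands, Ccr, Cxcr, Xcr, Cx3cr1 or Ackr for receptors) out of 17912 genes in 2 deposited count tables. Among them were 21 CC ligands, 11 CXC ligands, Cx3cl1, Xcl1, 16 signalling receptors and 3 atypical receptors. The table of the constitutive experiment listed 52 of these genes and the table of the inducible experiment 51, with 50 in both. Ccl21b and Ccl26 were listed only in the first, and Cxcr1 only in the second.

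The study measured polyadenylated RNA in left ventricles of male mice with floxed alleles of Ddx5, an RNA helicase gene, in 4 groups of 3 libraries. The constitutive knockout mCKO (DDX5fl/fl MYH6Cre+, untreated) and its controls CTR1 (Ddx5flox/flox without Cre, untreated) were 8 weeks old. The inducible knockout iCKO (Ddx5flox/flox Myh6MerCreMer) and its controls CTR2 (Ddx5flox/flox without Cre) both received tamoxifen at 20 mg/kg/day by intraperitoneal injection for 5 days, and the design text names 7 days of tamoxifen. Floxed Ddx5 alleles were thus common to all 4 groups, and the labels give no age for iCKO and CTR2. Both Cre transgenes are driven by the Myh6 promoter, which is active in cardiomyocytes, so other cell types of the ventricle were not targeted. Neither control group carried Cre, so effects of Cre and of losing Ddx5 cannot be told apart. No label states that replicates are separate animals, and p-values then measure the spread between these samples.

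Library totals ranged between 19682268 and 25871882 counts. Ddx5 was at 233, 232 and 218 CPM (a gene's share of the library's counts, scaled by TMM) in mCKO, against 636, 635 and 396 CPM in CTR1. It was at 216, 219 and 192 CPM in iCKO, against 566, 696 and 597 CPM in CTR2, so every knockout library lay below its controls. Cardiomyocyte markers were the most abundant of the marker lists, with summed levels of 89423 to 124333 CPM in mCKO, 107136 to 144270 CPM in CTR1, 65400 to 78424 CPM in iCKO and 132496 to 145313 CPM in CTR2. Replicate 3 of both mCKO and CTR1 stood apart from replicates 1 and 2. It was the highest library for 21 of the 26 chemokine genes tested there in mCKO, and for 19 of 26 in CTR1, with median ratios of 1.72 and 1.68 to the mean of the other libraries. Results of that experiment are therefore given with replicate number as a block in the model (a term that compares same-numbered libraries), without it, and without replicate 3. Replicate 3 of iCKO stood apart as well. Its chi-square per degree of freedom was 146 against replicate 1 and 112 against replicate 2, which differed from each other by 23.4.

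To set the sequence beside the values, 4 promoters are shown: those of the ligand genes Ccl9, Cxcl1, Cxcl10 and Cxcl2. They were chosen because each gene rose in iCKO and its window holds a match to the NF-kB consensus, the sequence bound by a family of transcription factors that act in inflammation. Each window is 300 bases of GRCm38.p6 from RefSeq, 250 bases before the gene start and 50 after it, read on the strand of the gene. Capitals mark the letters that match the consensus on either strand. Ccl9 lies at chr11:83578587-83578886 on the minus strand, Cxcl1 at chr5:90890995-90891294 on the plus strand, Cxcl10 at chr5:92348840-92349139 on the minus strand, and Cxcl2 at chr5:90903649-90903948 on the plus strand.
Ccl9: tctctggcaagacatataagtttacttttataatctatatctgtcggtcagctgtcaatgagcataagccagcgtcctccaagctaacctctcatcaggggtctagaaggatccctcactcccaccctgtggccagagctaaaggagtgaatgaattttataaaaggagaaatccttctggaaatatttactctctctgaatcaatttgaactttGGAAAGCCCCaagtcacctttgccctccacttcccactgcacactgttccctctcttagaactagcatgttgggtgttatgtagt
Cxcl1: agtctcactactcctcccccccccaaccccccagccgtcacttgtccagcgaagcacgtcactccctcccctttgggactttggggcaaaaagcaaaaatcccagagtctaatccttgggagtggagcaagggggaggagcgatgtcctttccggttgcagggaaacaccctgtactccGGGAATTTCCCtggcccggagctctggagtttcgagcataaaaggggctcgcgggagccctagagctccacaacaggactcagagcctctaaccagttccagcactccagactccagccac
Cxcl10: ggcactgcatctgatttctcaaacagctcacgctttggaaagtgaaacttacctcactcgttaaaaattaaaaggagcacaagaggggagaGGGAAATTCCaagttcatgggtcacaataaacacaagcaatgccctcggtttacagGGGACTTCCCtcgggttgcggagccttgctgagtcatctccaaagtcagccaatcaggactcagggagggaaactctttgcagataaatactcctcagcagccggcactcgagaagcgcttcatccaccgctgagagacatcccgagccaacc
Cxcl2: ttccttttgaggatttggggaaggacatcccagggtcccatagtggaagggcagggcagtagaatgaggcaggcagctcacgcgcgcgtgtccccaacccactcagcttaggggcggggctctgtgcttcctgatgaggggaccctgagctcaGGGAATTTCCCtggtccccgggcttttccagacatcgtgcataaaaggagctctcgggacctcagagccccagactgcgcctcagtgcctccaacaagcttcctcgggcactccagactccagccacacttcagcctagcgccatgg
In Cxcl1 and Cxcl2 the capitals cover a pair of overlapping matches, 1 per strand, that span bases -71 to -61 and -97 to -87 from the start. Cxcl10 holds separate matches at -159 to -150 and at -103 to -94, and Ccl9 holds a match at -35 to -26. The Cxcl10 window also holds the interferon-response (ISRE) core at -213 to -204 and the AP-1 letters TGANTCA at -74 to -68, and the Ccl9 window holds TGANTCA at -53 to -47. Of all 32851 promoter windows, 4.51% held the NF-kB consensus, 3.44% the ISRE core and 7.81% TGANTCA on either strand. RefSeq windows were found for 40 of the 53 chemokine genes, and 7 of these 40 (17.5%) held the NF-kB consensus. It was in 4 of the 15 windows of genes called higher in iCKO and in 3 of the 25 others, namely Cxcl3, Ackr2 and Ccr3. The others include genes left untested by a filter on low counts. Cxcl3 and Ccr3 were among these, and a fit without that filter called both higher in iCKO. No window was found for Ccl2, Ccl7, Ccl4, Cxcl5 and Cxcl16, which were called higher too. A match describes letters and does not show that a factor binds there.

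Levels of different genes are compared as group means of CPM per kilobase of exon. Since the tables were scaled separately, levels are set side by side across the experiments only as a description. Cxcl12, the homeostatic ligand of Cxcr4, had the highest level of all ligands in both control groups, with 32.5 CPM per kb in mCKO, 36.1 CPM per kb in CTR1, 21.9 CPM per kb in iCKO and 26.5 CPM per kb in CTR2. The ligand Ccl21a, made by lymphatic endothelium for cells with Ccr7, stood close to it, with 32.7 CPM per kb in mCKO, 24.6 in CTR1, 22.8 in iCKO and 17.6 in CTR2. In iCKO, Ccl6 (71.8 CPM per kb), Ccl2 (56.1 CPM per kb) and Ccl7 (36.3 CPM per kb) were above Cxcl12, while in CTR2 they were at 9.16, 1.53 and 0.454 CPM per kb. Ccl12 (27.2 CPM per kb), Ccl3 (26.5 CPM per kb), Ccl9 (25 CPM per kb) and Ccl21a were above Cxcl12 in iCKO too.

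Among receptors, Ackr3, the atypical receptor that clears Cxcl12, had the highest level per length in mCKO (28.8 CPM per kb), CTR1 (30.7 CPM per kb) and CTR2 (22.1 CPM per kb). Cxcr6, the receptor of Cxcl16, was highest in iCKO at 58.5 CPM per kb, where Ackr3 was at 10.3 CPM per kb. Cxcr6 was at 0.138 CPM per kb in mCKO, 0.149 in CTR1 and 0.196 in CTR2. At the low end, 7 genes stayed under a mean of 0.1 CPM in all groups that list them: Ccl21b, Ccl26, Ccl27b, Ccr4, Ccr8, Cxcl17 and Cxcr1. Where a gene had 0 counts, up to 3 counts remain possible, which is 0.106 to 0.157 CPM by library, for counting error only.

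**Figure D1:**
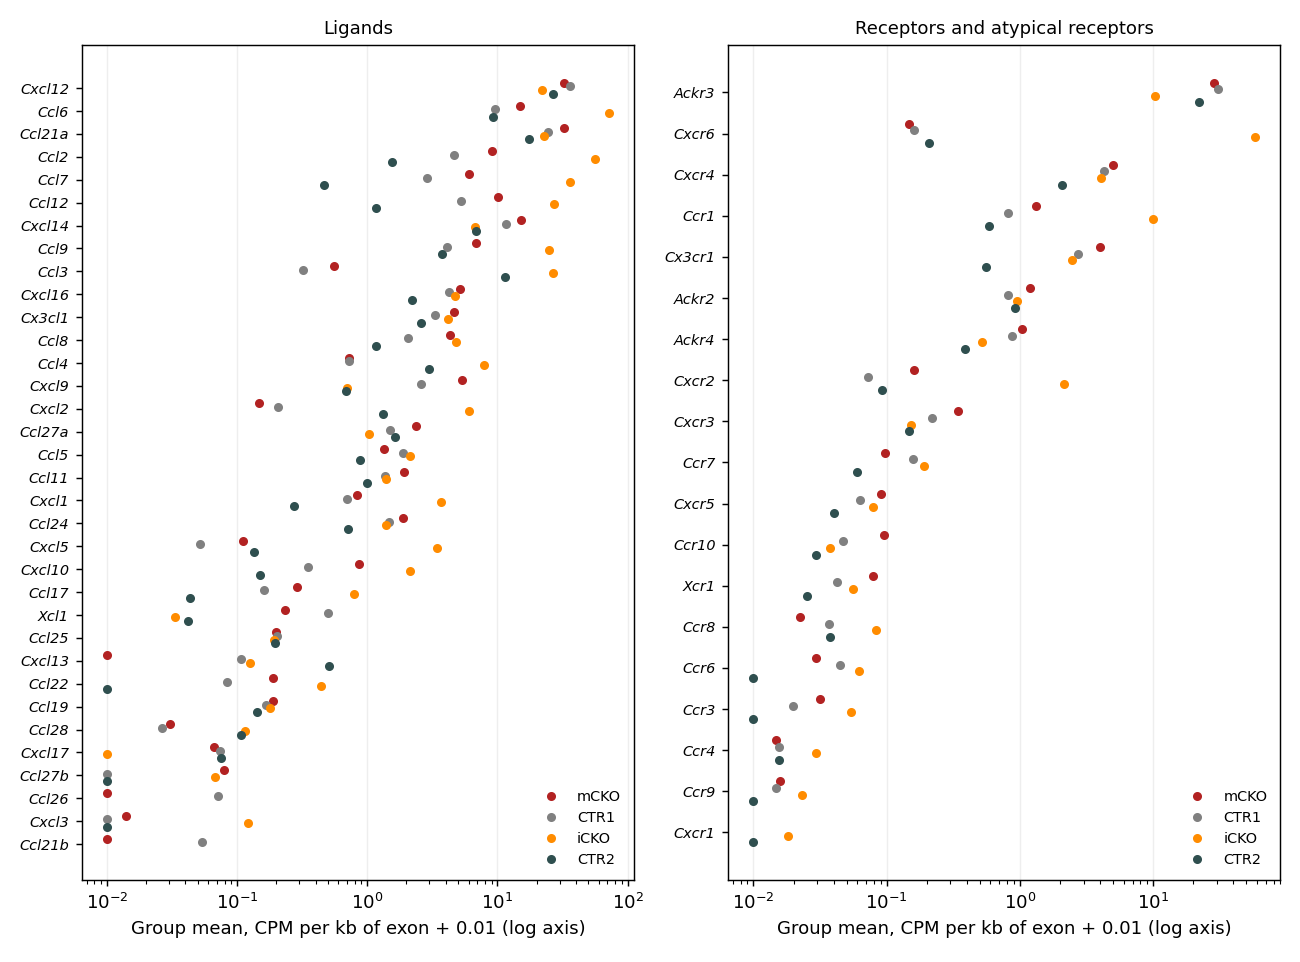
Group means of the 53 chemokine and chemokine receptor genes, in CPM per kilobase of exon plus 0.01 on a log axis, ligands on the left and receptors on the right, 1 point per group (mCKO, CTR1, iCKO and CTR2). Genes are ordered by the mean over the groups; Cxcr6 lies at 58.5 CPM per kb in iCKO and at or below 0.196 CPM per kb in the other 3 groups.

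In the inducible knockout, ligands that attract monocytes (such as Ccl2 and Ccl7), neutrophils (such as Cxcl5 and Cxcl1) and lymphocytes (such as Cxcl10 and Cxcl16) rose, as did the receptors Cxcr6, Cxcr2, Ccr1, Cx3cr1 and Cxcr4. The comparison of iCKO with CTR2 tested 33 of the 51 listed genes, and the other 18 were under the filter on low counts. It called 20 higher, which were 15 ligands and 5 receptors, and 1 lower, Ackr3 (edgeR quasi-likelihood test, Benjamini-Hochberg adjusted p under 0.05 over 13548 genes). Of all genes tested, 25.2% were called higher and 19.5% lower. The median log2 fold change was 1.29 over the 33 chemokine genes and 0.03 over all genes tested. These shares need care, because a gene that is low in CTR2 could pass the filter only by being high in iCKO. Of the 33 genes, 23 had all 3 CTR2 libraries over the filter's cutoff of 0.413 CPM (before TMM scaling), and 11 of these 23 were called higher. Below, ± follows a log2 fold change as its standard error and a mean as its SD (n = 3).

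Ccl7 and Ccl2, monocyte attractants of chromosome 11, had the largest changes among ligands with counts in CTR2. Ccl2 (Entrez 20296, 82035577 to 82037452 in GRCm38) was at 57.9, 79.2 and 54.4 CPM in iCKO, against 2.28, 1.32 and 1.63 CPM in CTR2. Every iCKO library was far above every CTR2 library, and the means were 63.8 ± 13.4 and 1.74 ± 0.489 CPM (36.6-fold, log2 fold change 5.19 ± 0.26, adjusted p = 2.0e-05). Ccl7, a further monocyte attractant, was at 26.6, 32.8 and 27.8 CPM in iCKO, against 0.506, 0.33 and 0.255 CPM in CTR2. It had the smallest adjusted p of all chemokine genes (6.30 ± 0.26, adjusted p = 1.0e-05). Ccl12, a mouse ligand related to Ccl2, was at 14.5, 15.7 and 13.7 CPM in iCKO, against 1.11, 0.282 and 0.459 CPM in CTR2 (4.56 ± 0.39, adjusted p = 1.1e-04). Its iCKO libraries lay close together. Ccl8, another ligand of the same region, was at 1.53, 2.39 and 3.43 CPM in iCKO, against 0.354, 1.18 and 0.255 CPM in CTR2 (2.02 ± 0.56, adjusted p = 0.019). The groups did not overlap, but the Ccl8 call was lost without iCKO replicate 3 (adjusted p = 0.052), CTR2 replicate 1 (0.071) or CTR2 replicate 3 (0.064).

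These 4 genes lie beside each other with Ccl11, within chr11:82035577-82116799. Ccl11, an attractant of eosinophils, was not called, with 1.46, 1.27 and 1.71 CPM in iCKO against 1.11, 0.989 and 1.07 CPM in CTR2 (adjusted p = 0.21). A further stretch of the same chromosome, chr11:83525778-83664683, holds Ccl5, Ccl9, Ccl6, Ccl3 and Ccl4, of which all but Ccl5 were called higher. Ccl6 and Ccl9 are mouse ligands of Ccr1 that macrophages produce. Ccl6 was at 75.2, 83.0 and 228 CPM in iCKO, against 17.1, 20.9 and 11.3 CPM in CTR2 (2.97 ± 0.46, adjusted p = 0.0013). Ccl9 was at 45.7, 54.0 and 129 CPM in iCKO, against 11.6, 13.5 and 8.77 CPM in CTR2 (2.75 ± 0.40, adjusted p = 0.001). For both, iCKO replicate 3 was the highest library by a wide margin, and the other iCKO libraries were still above all of CTR2.

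Ccl3 and Ccl4 attract macrophages and T cells. Ccl3 was at 16.1, 26.7 and 18.1 CPM in iCKO, against 8.45, 8.38 and 9.43 CPM in CTR2 (1.21 ± 0.22, adjusted p = 0.0026). Ccl4 was at 3.94, 7.54 and 4.06 CPM in iCKO, against 1.87, 2.07 and 1.94 CPM in CTR2 (1.40 ± 0.31, adjusted p = 0.0072). The CTR2 libraries agreed closely for both genes, and replicate 2 was the highest of iCKO. Ccl5, a lymphocyte-derived ligand, was at 0.803, 3.56 and 1.71 CPM in iCKO, against 0.809, 0.565 and 1.12 CPM in CTR2 (adjusted p = 0.09), and its groups overlapped. It was called without iCKO replicate 1 (adjusted p = 0.019). Ccl22, a ligand of Ccr4, had 22, 30 and 30 counts in iCKO (0.803, 1.06 and 1.12 CPM) and 0 in all CTR2 libraries, at least 6.68-fold higher against a floor of 3 counts per library. It was called (adjusted p = 8.6e-04), with a fitted log2 fold change that depends on the prior count and is not given as a size.

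Of the CXC ligands, those that bind the neutrophil receptor Cxcr2 rose. Cxcl5 was at 9.16, 7.36 and 2.76 CPM in iCKO, against 0.253, 0.141 and 0.306 CPM in CTR2 (4.76 ± 0.57, adjusted p = 4.0e-04). Cxcl1 was at 8.80, 8.35 and 3.69 CPM in iCKO, against 0.556, 0.424 and 0.51 CPM in CTR2 (3.80 ± 0.41, adjusted p = 2.9e-04). Replicate 3 was the lowest iCKO library for both and was still far above CTR2. Cxcl2 was at 9.64, 17.3 and 10.6 CPM in iCKO, against 3.09, 2.92 and 2.19 CPM in CTR2 (2.19 ± 0.28, adjusted p = 5.6e-04). These 3 genes and Cxcl3 lie within chr5:90759298-90905938. Cxcl3 fell just short of the filter, with 12, 5 and 15 counts in iCKO and 0 in every CTR2 library, at least 2.63-fold higher. Both matches in Cxcl1 and Cxcl2 shown above lie in this stretch.

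Cxcl10, a ligand of the T cell receptor Cxcr3 that interferons induce, was at 5.40, 6.66 and 2.35 CPM in iCKO, against 0.304, 0.282 and 0.357 CPM in CTR2 (3.92 ± 0.48, adjusted p = 4.4e-04). Cxcl9, its neighbour with the same receptor, was at 2.08, 2.47 and 1.68 CPM in iCKO, against 2.07, 0.989 and 3.06 CPM in CTR2 (adjusted p = 0.96). The groups overlapped for Cxcl9 and were far apart for Cxcl10. Cxcl16, a membrane-bound ligand of Cxcr6, was at 9.78, 12.8 and 20.0 CPM in iCKO, against 7.03, 6.40 and 6.48 CPM in CTR2 (1.09 ± 0.26, adjusted p = 0.01). Cx3cl1, the membrane-bound ligand of Cx3cr1, was at 15.3, 17.6 and 16.6 CPM in iCKO, against 10.3, 8.38 and 11.5 CPM in CTR2 (0.71 ± 0.17, adjusted p = 0.011). Cxcl16 shares 18.3% of its exon bases with Zmynd15 on the opposite strand, and Cxcl10 5.91% with Art3, so part of their counts may not be theirs if counting ignored strand.

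Cxcl12, Ccl21a and Ccl27a were not called. Cxcl12 was at 191, 212 and 135 CPM in iCKO, against 211, 255 and 185 CPM in CTR2 (-0.27 ± 0.21, adjusted p = 0.31). Ccl21a was at 19.6, 24.5 and 15.4 CPM in iCKO, against 19.4, 8.52 and 18.1 CPM in CTR2 (0.37 ± 0.31, adjusted p = 0.36). Ccl27a, a ligand of Ccr10, was at 2.48, 1.69 and 3.13 CPM in iCKO, against 3.49, 3.58 and 4.54 CPM in CTR2 (-0.67 ± 0.29, adjusted p = 0.089). Its groups did not overlap, and it was called lower without iCKO replicate 3 (-0.93, adjusted p = 0.028), as was Cxcl14 (-0.58, adjusted p = 0.028). Over all 12 tested genes that were not called, the adjusted p ran between 0.089 and 0.96. Ccl21a and Ccl27a have near-identical copies in the mouse genome, so their counts are uncertain.

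**Figure D2:**
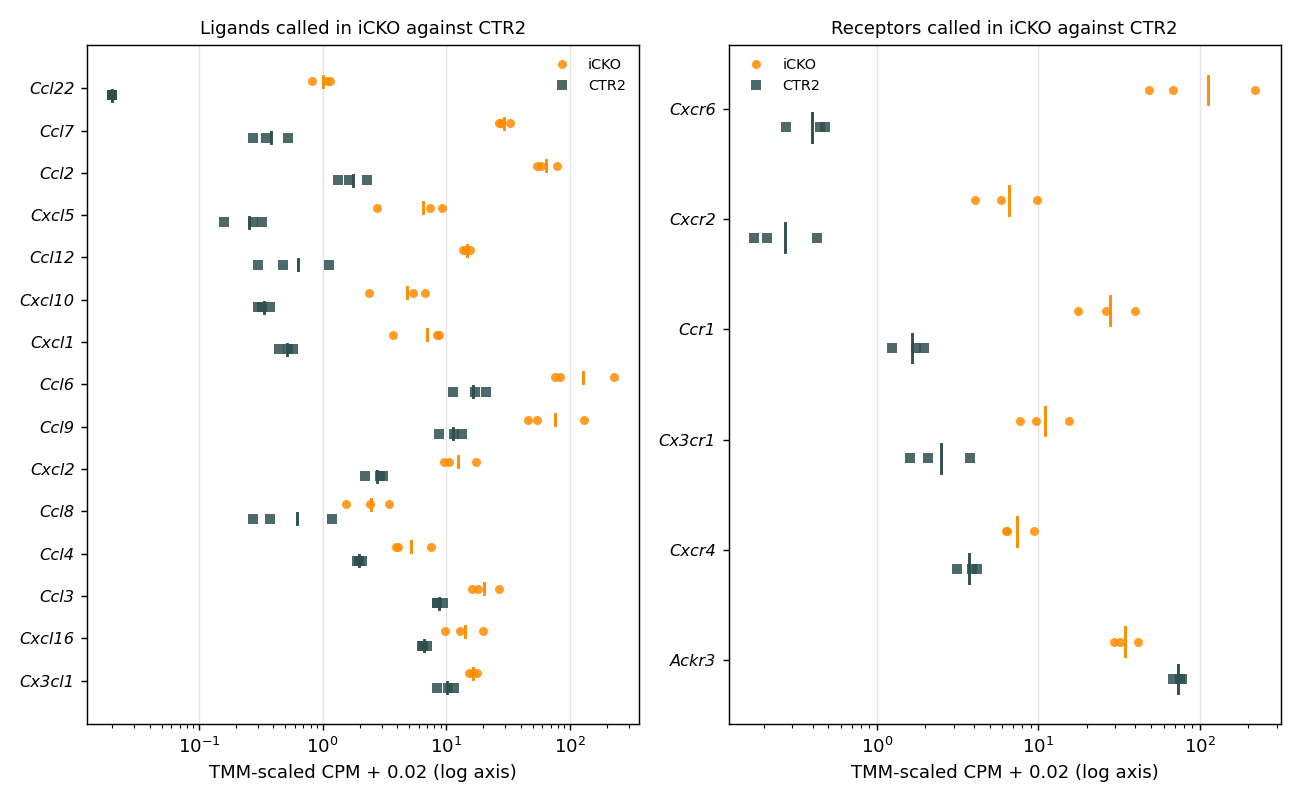
TMM-scaled CPM plus 0.02 on a log axis for the 21 chemokine genes called in iCKO against CTR2, ligands on the left and receptors on the right; circles are iCKO libraries, squares CTR2 libraries and vertical bars group means. No called gene has overlapping groups, and only Ackr3 is lower in iCKO.

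Of the receptors, 5 were called higher. Cxcr2, the neutrophil receptor, was at 4.05, 5.85 and 9.80 CPM in iCKO, against 0.405, 0.188 and 0.153 CPM in CTR2 (4.70 ± 0.49, adjusted p = 2.4e-04). Ccr1 was at 17.6, 26.4 and 39.9 CPM in iCKO, against 1.72, 1.93 and 1.22 CPM in CTR2 (4.10 ± 0.35, adjusted p = 1.1e-04). It is a receptor of monocytes and macrophages for Ccl6 and Ccl9, and each iCKO library was far above CTR2 for it and for Cxcr2. Cx3cr1, a receptor of patrolling monocytes and resident macrophages, was at 9.75, 15.6 and 7.67 CPM in iCKO, against 3.79, 2.07 and 1.58 CPM in CTR2 (2.15 ± 0.38, adjusted p = 0.0025). Cxcr4, the signalling receptor of Cxcl12, was at 6.39, 6.30 and 9.35 CPM in iCKO, against 3.90, 3.11 and 4.18 CPM in CTR2 (0.98 ± 0.24, adjusted p = 0.011).

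Ackr3 was the only chemokine gene called lower, while Cxcr4, with which it shares Cxcl12, was called higher. Ackr3 was at 41.8, 32.3 and 29.7 CPM in iCKO, against 76.1, 77.6 and 68.2 CPM in CTR2, 46.8% of the CTR2 mean (-1.09 ± 0.17, adjusted p = 0.0012). Its groups were well apart. Ackr2, which scavenges inflammatory CC ligands, was at 2.12, 3.31 and 3.35 CPM in iCKO, against 1.42, 4 and 3.06 CPM in CTR2 (adjusted p = 0.93). Ackr4, which scavenges Ccl19, Ccl21 and Ccl25, was at 2.37, 3.49 and 2.35 CPM in iCKO, against 3.24, 1.18 and 1.68 CPM in CTR2 (adjusted p = 0.4). The groups overlapped for both. Of 10 endothelial markers, 5 were called lower and none higher, beside 19.5% and 25.2% of all genes tested. Their summed level was 1248 to 1404 CPM in iCKO against 1707 to 2026 CPM in CTR2. The part of these markers in the Ackr3 result was not tested.

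Cxcr6 changed most. It is a receptor of T cells, NK cells and other lymphocytes for Cxcl16 (Entrez 80901, chr9:123806477-123811754). Its level was 48.4, 68.2 and 222 CPM in iCKO (1327, 1937 and 5959 counts), against 0.455, 0.424 and 0.255 CPM in CTR2 (9, 9 and 5 counts). The iCKO libraries differed among themselves by more than those of any other called gene in the plot of called genes, and each was far above every CTR2 library. The means were 113 ± 95.0 and 0.378 ± 0.108 CPM, 299-fold (8.20 ± 0.76, adjusted p = 1.4e-04), rank 8 of 13548 genes by log2 fold change.

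T and NK cell markers did not rise on that scale. Of 17 such markers 15 were listed, 2 (Cd4 and Cd247) passed the filter, and neither was called. The summed level of the 15 was 4.45 to 8.31 CPM in iCKO and 1.88 to 3.82 CPM in CTR2, where Cd3e and Gzmb were at 0. Cxcr6 lies inside the gene Fyco1 on the opposite strand and shares no exon base with it. Whether counting used strand is not given in the sources used here, so the 299-fold value carries that limit. Fyco1, a gene of autophagosome transport, was at 326, 277 and 120 CPM in iCKO, against 935, 935 and 941 CPM in CTR2 (-1.96 ± 0.33, adjusted p = 0.002). The iCKO library with the lowest Fyco1 was thus the one with the highest Cxcr6. In the constitutive experiment, replicate 3 was lowest for Fyco1 too (280 CPM in mCKO and 392 CPM in CTR1), with Cxcr6 at 0.21 CPM in mCKO and 0.463 CPM in CTR1. The part of Fyco1 or of lymphocytes in the Cxcr6 result was not tested.

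**Figure D3:**
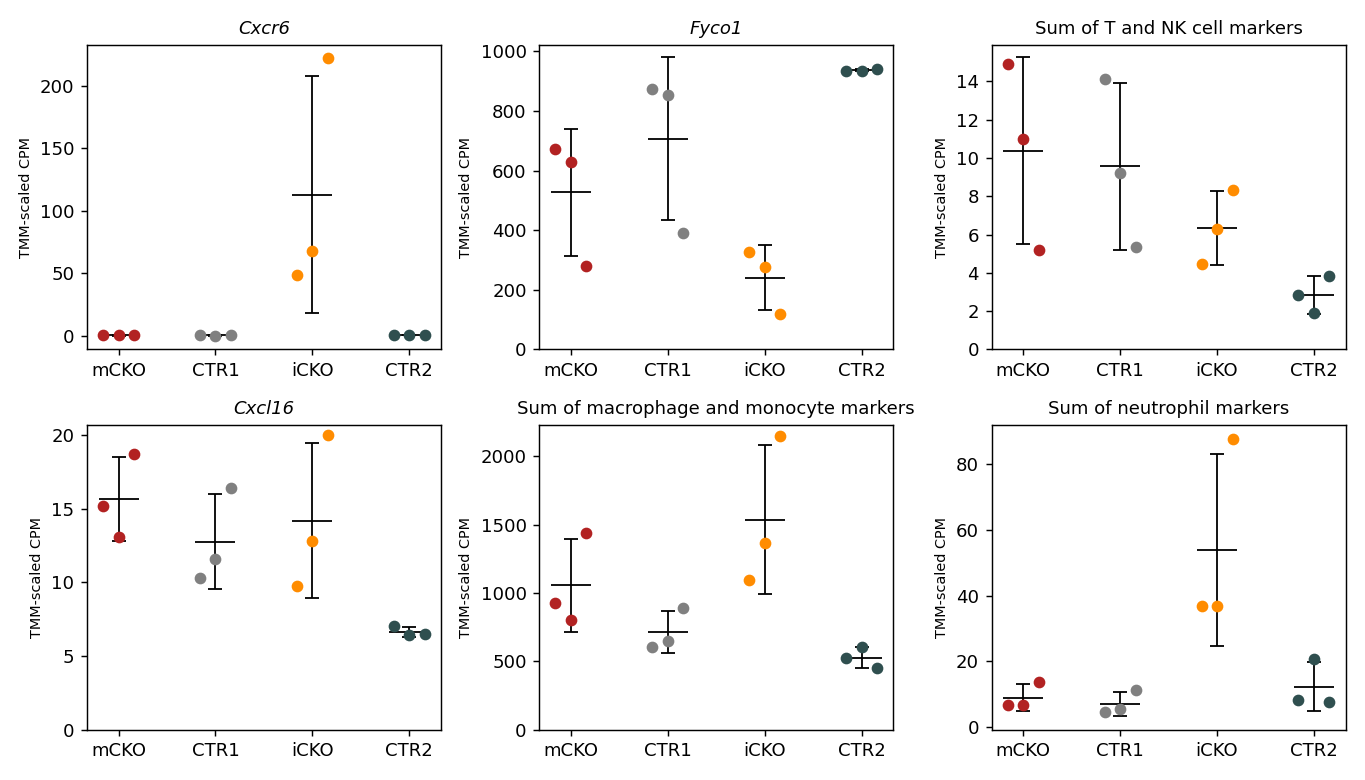
TMM-scaled CPM by library in mCKO, CTR1, iCKO and CTR2 for Cxcr6, its host gene Fyco1, its ligand Cxcl16, and the summed markers of T and NK cells, macrophages and monocytes, and neutrophils; points are libraries 1 to 3 from left to right, and black lines are the mean with SD. Cxcr6 reaches 48.4 to 222 CPM in iCKO and stays under 0.5 CPM in every other library.

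Markers of several cell types differed in iCKO, beside 25.2% of all genes tested that were called higher and 19.5% called lower. Macrophage and monocyte markers were called higher for 14 of 18 and lower for none, and their summed level was 1095 to 2146 CPM in iCKO against 451 to 607 CPM in CTR2. Of 10 neutrophil markers, 8 passed the filter, 5 were called higher and none lower, with sums of 36.9 to 87.6 CPM in iCKO against 7.80 to 20.8 CPM in CTR2. Replicate 3 of iCKO was the highest for both lists, as it was for Ccl6, Ccl9, Ccr1, Cxcr2 and Cxcr6, while it was the lowest for Cx3cr1, Ccl2, Ccl12, Cxcl10, Cxcl5 and Cxcl1. Fibroblast markers were called higher for 8 of 14 and lower for 3, with sums of 4829 to 7149 CPM in iCKO against 2385 to 2889 CPM in CTR2. Cardiomyocyte markers were called lower for 10 of 14 and higher for 2. The part of these cells in the chemokine results was not tested, and in bulk tissue more cells of a type and more RNA per cell cannot be told apart.

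Other genes of the pathway are given from lists, where 25.2% of all genes tested in iCKO were called higher and 19.5% lower. As above, a gene low in CTR2 could pass the filter only by being high in iCKO. Of 32 genes of signalling below chemokine receptors, 30 passed the filter, 22 were called higher and none lower. Fgr, a Src-family kinase of myeloid cells, was at 7.64 ± 1.1 CPM in iCKO against 0.397 ± 0.0949 CPM in CTR2. Of 24 adhesion genes for leukocyte exit from blood, 23 passed the filter, 15 were called higher and 1 lower. Selp, the platelet and endothelial selectin on which leukocytes roll, was at 15.1 ± 2.93 CPM in iCKO against 0.671 ± 0.232 CPM in CTR2 (4.47 ± 0.30, adjusted p = 6.1e-05). Of 30 inflammatory cytokine and NF-kB genes, 24 passed the filter, 17 were called higher and none lower. Il1b, a cytokine that induces chemokines, was at 7.52 ± 2.72 CPM in iCKO against 0.301 ± 0.187 CPM in CTR2 (4.63 ± 0.47, adjusted p = 2.0e-04). Of 25 interferon-stimulated genes, 11 were called higher and 1 lower.

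A list of 13 further chemokine-related genes, which also holds Cxcl17 of the 53, had 11 that passed the filter (Cxcl17 did not). Of these, 3 were called higher and 2 lower, beside 25.2% and 19.5% of all genes tested. Pf4 and Ppbp are CXC chemokines of platelets. Pf4 was at 20.3, 21.9 and 61.7 CPM in iCKO, against 7.18, 4.05 and 5.91 CPM in CTR2 (2.60 ± 0.46, adjusted p = 0.0024), and Ppbp was called higher too. Both are also in the list of platelet and erythroid markers, of which 8 of 10 passed the filter, 5 were called lower and only Pf4 and Ppbp higher. Ccrl2, a receptor that binds chemerin without signalling, was lower, at 9.24, 7.54 and 7.93 CPM in iCKO, against 17.4, 42.8 and 19.4 CPM in CTR2 (-1.69 ± 0.34, adjusted p = 0.0044).

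Among the 18 genes listed under the filter in this experiment, Ccl17 came closest with Cxcl3, with 11, 9 and 13 counts in iCKO against 0, 0 and 1 in CTR2. Ccl28 passed narrowly, with 24, 11 and 7 counts in iCKO against 9, 16 and 4 in CTR2, and was not called. Ccr6 had 2, 4 and 4 counts in iCKO and 0 in all of CTR2, and Ccr3 and Ccr9 had 2 to 6 counts in iCKO libraries and 0 in all of CTR2. Over all 51 listed genes, groups did not overlap for 27 that were higher and 3 that were lower in iCKO (Ackr3, Ccl27a and Cxcl17). Of all genes tested, 31.9% and 27% were so separated. The sets are unlike, because the 51 include the 18 genes under the filter. For Ccr3, Ccr6, Ccr9, Ccl17 and Cxcl3 among the 27, a few counts set the separation. Cxcl17 had 0 counts in each iCKO library and 1 in each CTR2 library.

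In the constitutive knockout, chemokine genes were higher by small factors where they differed. The comparison of mCKO with CTR1 tested 26 of the 52 listed genes (20 ligands and 6 receptors), with 26 under the filter. Without the replicate block no chemokine gene was called by edgeR, as 0% of all 13353 genes were. At an unadjusted p under 0.05 there were 4 chemokine genes and 1164 genes in all. DESeq2 also called 0 chemokine genes, beside 1.32% of all genes higher and 1% lower. With limma-voom 0 chemokine genes were called, beside 0% of all genes. With the block, 8 were called higher and 0 lower, namely 7 ligands and 1 receptor, beside 7.32% of all genes higher and 6.45% lower. The median log2 fold change with the block was 0.51 over the 26 and 0.00 over all genes. All 8 were higher in mCKO in each of the 3 same-numbered pairs, but the block that picked them compares these same pairs. Genes that were not called, such as Ackr2, Ccr1 and Cxcl16, were higher in each of the 3 pairs too.

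The called ligands included the same stretch of chromosome 11 that holds Ccl2. Ccl2 was at 5.60, 3.52 and 22 CPM in mCKO, against 3.08, 2.61 and 10 CPM in CTR1 (0.89 ± 0.16 with the block, adjusted p = 0.0046). Replicate 3 was the highest of each group, and the groups overlapped. Without the block the value was 0.99 (adjusted p = 0.88), and without mCKO replicate 3 alone it was -0.20 (adjusted p = 0.95). Ccl7 was at 3.37, 2.26 and 8.77 CPM in mCKO, against 1.22, 1.93 and 3.66 CPM in CTR1 (1.03 ± 0.24 with the block, adjusted p = 0.017, and 0.74 without it). Without the block and mCKO replicate 3 its value was 0.31 (adjusted p = 0.88), against 1.08 with all libraries. Ccl12 was at 5.96, 3.77 and 6.51 CPM in mCKO, against 1.81, 1.83 and 4.77 CPM in CTR1 (1.0 ± 0.24 with the block, adjusted p = 0.02, and 0.63 without it). Both are monocyte attractants, and their groups overlapped through CTR1 replicate 3. Ccl8 was at 3.33, 1.36 and 1.97 CPM in mCKO, against 1.32, 0.992 and 0.834 CPM in CTR1 (1.05 ± 0.28 with the block, adjusted p = 0.032, and 0.52 without it), with no overlap.

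The other called ligands were Cx3cl1, Ccl21a and Ccl27a. Cx3cl1 was at 12.1, 15.7 and 27.1 CPM in mCKO, against 10.1, 9.50 and 19.1 CPM in CTR1 (0.50 ± 0.11 with the block, adjusted p = 0.014, and 0.86 without it). Without the block its value was 0.50, and without mCKO replicate 3 as well it was 0.10 (adjusted p = 0.95). Ccl21a was at 15.9, 17.4 and 52.0 CPM in mCKO, against 12.9, 11.3 and 39.9 CPM in CTR1 (0.43 ± 0.09 with the block, adjusted p = 0.012). Replicate 3 of both groups was far above the others for Ccl21a, and without mCKO replicate 3 alone the value was -0.37 (adjusted p = 0.87). Of 7 lymphatic endothelial markers, Ccl21a among them, 2 were called higher and 1 lower with the block, beside 7.32% and 6.45% of all genes tested. Their sums were 182 to 282 CPM in mCKO against 190 to 241 CPM in CTR1, and their part was not tested. Ccl27a was at 5.21, 5.33 and 6.34 CPM in mCKO, against 3.28, 3.50 and 3.85 CPM in CTR1 (0.67 ± 0.16 with the block, adjusted p = 0.017, and 0.3 without it), and its groups did not overlap.

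The called receptor was Cx3cr1, which resident macrophages carry. Cx3cr1 was at 15.8, 18.6 and 19.8 CPM in mCKO, against 11.4, 11.3 and 14.2 CPM in CTR1 (0.55 ± 0.10 with the block, adjusted p = 0.0058, and 0.33 without it). Each mCKO library was above every CTR1 library. Macrophage and monocyte markers were called higher for 12 of 18 with the block, at sums of 800 to 1438 CPM in mCKO against 607 to 888 CPM in CTR1, and for fibroblast markers 8 of 14 were, at sums of 3053 to 5182 CPM in mCKO against 2855 to 4331 CPM in CTR1. Cardiomyocyte markers were called lower for 9 of 14 and higher for 1 with the block. Of all genes tested, the block called 7.32% higher and 6.45% lower. The part of these cells in the results was not tested.

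**Figure D4:**
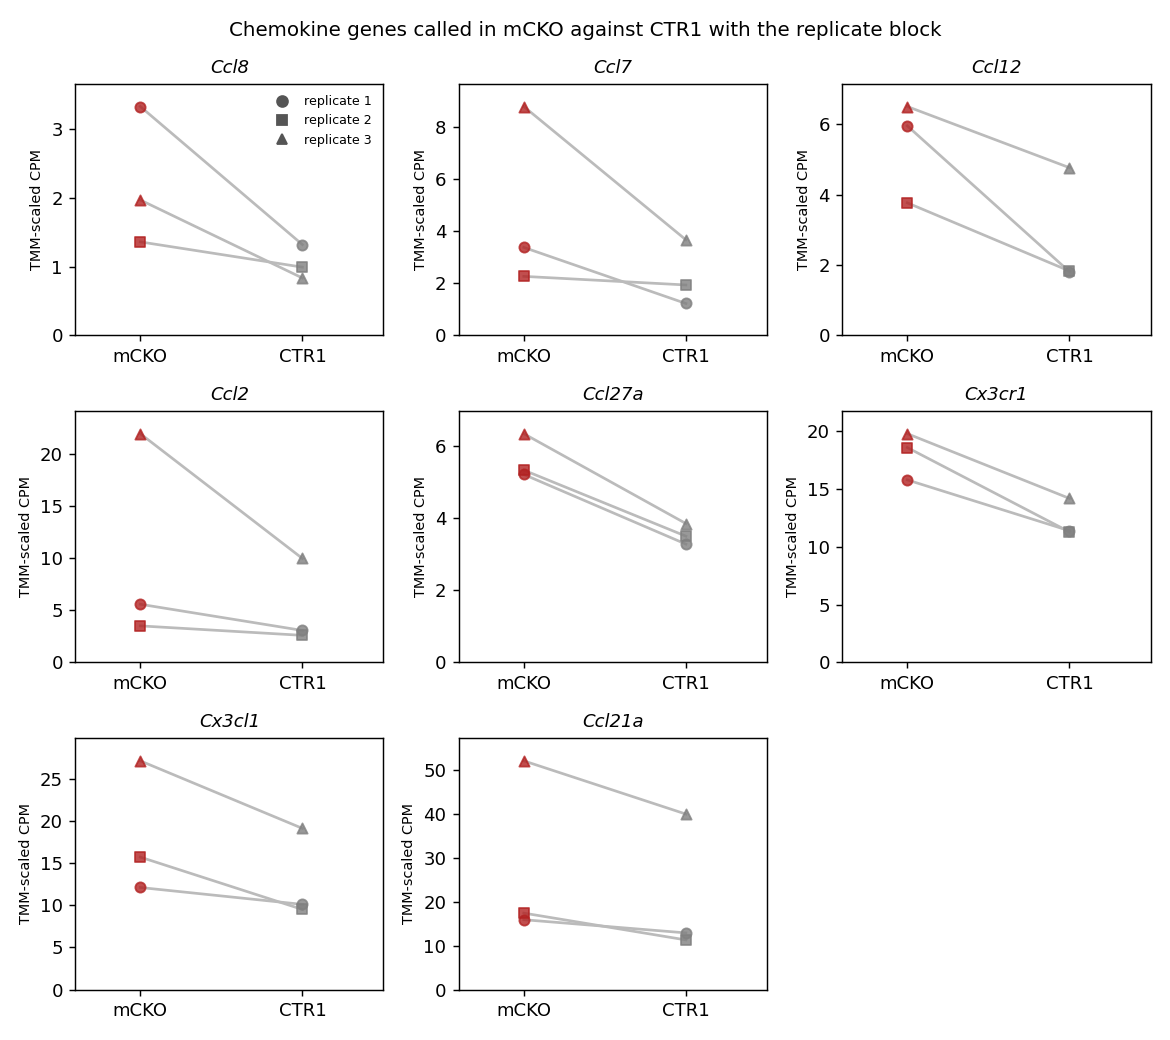
TMM-scaled CPM in mCKO and CTR1 for the 8 chemokine genes called with the replicate block, with lines joining libraries of the same replicate number; circles, squares and triangles are replicates 1, 2 and 3. All lines fall towards CTR1, which picking genes by same-numbered libraries favours. Replicate 3 is the highest mCKO library in 7 of the 8 panels, the exception being Ccl8.

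Without replicate 3 of both groups and without a block, 4 chemokine genes were called higher and 0 lower, beside 3.85% of all genes higher. These were Ccl12 and Cx3cr1, which the block had called too, and the interferon-induced ligands Cxcl9 and Cxcl10. Cxcl9 was at 20.7, 22.1 and 5.58 CPM in mCKO, against 10.4, 7.05 and 5.84 CPM in CTR1. Cxcl10 was at 2.89, 2.41 and 0.462 CPM in mCKO, against 0.978, 0.522 and 0.788 CPM in CTR1. For both, replicates 1 and 2 of mCKO were above every CTR1 library and replicate 3 was below its CTR1 partner. Without replicate 3 their log2 fold changes were 1.29 ± 0.17 (adjusted p = 0.004) and 1.81 ± 0.37 (adjusted p = 0.021). The 25 interferon-stimulated genes summed to 2464, 2241 and 576 CPM in mCKO, against 1281, 1408 and 515 CPM in CTR1. Under the block 10 of them were called higher and none lower, beside 7.32% and 6.45% of all genes tested. With the block and without the replicate 3 pair, Cxcl9 was the only chemokine gene called, and none of the 8 above passed. Their log2 fold changes in that fit stayed positive, from 0.46 for Ccl21a to 1.40 for Ccl12, with adjusted p between 0.053 and 0.25.

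Cxcl12 and Ackr3, the ligand and the receptor with the highest level per length in CTR1, were not called in mCKO. Cxcl12 was at 163, 219 and 414 CPM in mCKO, against 201, 186 and 500 CPM in CTR1 (adjusted p = 0.55 with the block). Ackr3 was at 92.3, 85 and 112 CPM in mCKO, against 112, 86.9 and 110 CPM in CTR1 (adjusted p = 0.43 with the block). Ccr1 fell just short with the block (adjusted p = 0.057), at 4.73, 2.46 and 3.99 CPM in mCKO against 2.64, 2.24 and 1.90 CPM in CTR1. The neutrophil receptor Cxcr2 was under the filter, at 4, 7 and 20 counts in mCKO against 3, 2 and 7 counts in CTR1, and so was Cxcr6, at 10, 3 and 5 counts in mCKO against 6, 2 and 10 counts in CTR1. Neutrophil markers summed to 6.63 to 13.6 CPM in mCKO and 4.50 to 11.3 CPM in CTR1, with Ly6g at 0 in mCKO and none called. Ccl4 passed the filter narrowly, with 10, 2 and 21 counts in mCKO against 11, 5 and 13 counts in CTR1. Of genes under it, Ccl22 had 3, 2 and 24 counts in mCKO against 0, 0 and 11 counts in CTR1, and Cxcr3 had 20, 8 and 11 counts in mCKO against 6, 8 and 8 counts in CTR1.

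Several genes called in iCKO were not called in mCKO. Ccl6 was at 17.3, 11.6 and 51.5 CPM in mCKO, against 9.63, 14.3 and 27.5 CPM in CTR1. Ccl9 was at 12.1, 8.34 and 41.9 CPM in mCKO, against 8.51, 8.30 and 20.8 CPM in CTR1. For both, replicate 3 was the highest library of each group. Cxcl16 was at 15.2, 13.1 and 18.7 CPM in mCKO, against 10.3, 11.6 and 16.4 CPM in CTR1. Cxcr4 was at 6.87, 8.04 and 11.9 CPM in mCKO, against 6.84, 6.21 and 10.3 CPM in CTR1. Cxcl1 was at 1.49, 0.754 and 2.35 CPM in mCKO, against 0.636, 1.41 and 1.81 CPM in CTR1. The groups overlapped for all of these. Under the filter, Ccl3 had 4, 4 and 21 counts in mCKO against 9, 0 and 6 counts in CTR1. Cxcl2 had 4, 0 and 16 counts in mCKO against 21, 2 and 2 counts in CTR1, and Cxcl5 had 1, 2 and 10 counts in mCKO against 0, 0 and 5 counts in CTR1. Their groups overlapped as well.

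Of the 26 tested genes, groups did not overlap in mCKO for 3 that were higher (Ccl27a, Ccl8 and Cx3cr1), beside 7.68% of all genes tested. Ccr6, under the filter, had 1 count per mCKO library against 2, 1 and 2 counts in CTR1; its CPM did not overlap (lower in mCKO, beside 7.32% of all genes tested), but replicate 2 had 1 count in each group, so that separation rests on library size. Of the other lists, the block called 9 of 29 tested signalling genes higher and none lower, and 6 of 23 adhesion genes higher and 1 lower. It called 4 of 21 cytokine and NF-kB genes higher and none lower. Over all genes tested it called 7.32% higher and 6.45% lower. Prkcd, a protein kinase C, was at 39.6 ± 1.54 CPM in mCKO against 25.0 ± 1.15 CPM in CTR1 (0.66 ± 0.07, adjusted p = 3.5e-04). Of the further chemokine-related genes, 3 of 11 were called higher and none lower. They were Cd74, the receptor of Mif (0.68 ± 0.08, adjusted p = 4.6e-04), Mif itself (0.48 ± 0.06, adjusted p = 0.001), and Rarres2, which encodes chemerin (0.36 ± 0.09, adjusted p = 0.031).

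The difference between the models was tested as the mCKO effect minus the iCKO effect in 1 fit of all 12 libraries. Tamoxifen, table and form of Cre differ with the model and cannot be told apart. Age may differ too, as the labels give none for iCKO and CTR2. Of 32 chemokine genes tested, 8 differed by a smaller effect in mCKO and 2 by a higher one, beside 9.88% and 11% of all genes tested in those directions. The 8 were Ccl2, Ccl7, Ccl12, Cxcl1, Ccr1, Cx3cr1, Cxcr2 and Cxcr6. These shares need the same care, because a gene low in the other groups could pass this filter only by being high in iCKO. Cxcr6 had 0 mCKO, 0 CTR1 and 1 CTR2 libraries over the cutoff of each experiment, and Cxcr2 had 1, 0 and 0. Cxcr6 had the largest difference (-8.30 ± 1.47, adjusted p = 0.0026), followed by Ccl7 (-5.19 ± 0.75, adjusted p = 8.4e-04) and Ccl2 (-4.17 ± 0.92, adjusted p = 0.0085).

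Ackr3 and Ccl27a differed the other way. For Ackr3 the mean was 96.3 ± 13.7 CPM in mCKO against 103 ± 13.8 CPM in CTR1, and 34.6 ± 6.38 CPM in iCKO against 73.9 ± 5.06 CPM in CTR2 (difference 1.04 ± 0.22, adjusted p = 0.0068). For Ccl27a it was 5.62 ± 0.621 CPM in mCKO against 3.54 ± 0.287 CPM in CTR1, and 2.43 ± 0.720 CPM in iCKO against 3.87 ± 0.581 CPM in CTR2 (1.37 ± 0.34, adjusted p = 0.016). Ccl27a was thus above its control in every mCKO library and below its control in every iCKO library. With the replicate block 13 genes had the smaller effect in mCKO and 2 the higher one, beside 13.3% and 14.8% of all genes tested. The added ones were Ccl6, Ccl9, Ccl22, Cxcl10 and Cxcr4. Ccl22 was under the filter in the constitutive experiment and had 0 counts in CTR2. Cx3cl1, called higher in iCKO and, with the block only, in mCKO, had a difference that did not pass (adjusted p = 0.81 without the block and 0.55 with it).

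**Figure D5:**
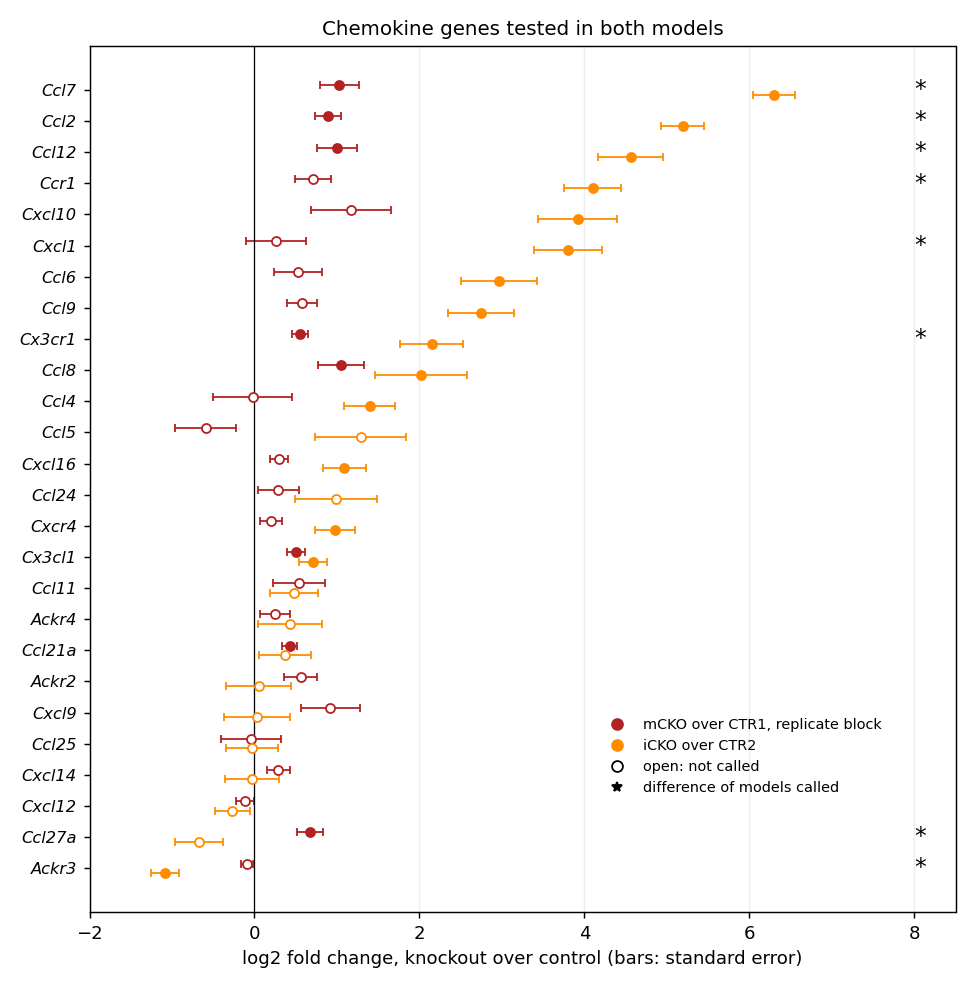
Log2 fold change with its standard error for the 26 chemokine genes tested in both experiments, mCKO over CTR1 (with the replicate block) above iCKO over CTR2; filled points were called, and a star marks a called difference between the models. Ccl7, Ccl2 and Ccl12 have the largest iCKO values at 6.30, 5.19 and 4.56, with mCKO values of 1.03, 0.89 and 1.0.

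By position, 33 of the 53 genes fell into 10 groups of neighbours, taken as genes at most 200 kb from the next. The stretch from Ccl2 to Ccl8 on chromosome 11 had 4 of 5 genes called higher in mCKO with the block and 4 of 5 in iCKO, and they were the same 4 genes. Of all genes tested, 7.32% and 25.2% were called higher. None of the 4 was called in mCKO with the block and without the replicate 3 pair. Ccl7 and Ccl8 each had 1 CTR2 library over the filter's cutoff. The stretch from Ccl5 to Ccl4 had 0 of 4 tested genes called in mCKO and 4 of 5 in iCKO. On chromosome 5, Cxcl5, Cxcl1 and Cxcl2 were all called higher in iCKO, and Cxcl1, the only one of them tested in mCKO, was not called there. On chromosome 9, chr9:123767211-124031692 holds 5 of the receptor genes, of which the 2 tested in iCKO (Cxcr6 and Ccr1) were both called higher. The others there, Ccr9, Xcr1 and Ccr3, were under the filter. Cxcl5 had 0 CTR2 libraries over the filter's cutoff, Cxcl1 had 2 and Cxcr6 had 1. These genes passed the filter only through their iCKO libraries, so their calls carry that limit.

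Genes with the most similar pattern were ranked by Pearson correlation of log2 CPM over 12 libraries after each experiment's mean was subtracted. These values are a description, since the libraries share the group difference. Closest to Ccl2 were Aldh1a2 (0.997) and Meox1 (0.996), and closest to Ccl7 was Lcp1 (0.993), a leukocyte actin-bundling gene. The gene closest to Ccl6 was Ccl9 (0.991), and Capg (0.992) and then Ccl6 were closest to Ccl9. Ccl12 was close to the collagen gene Col3a1 (0.989), Cxcl16 to Tyrobp (0.981), and Cxcr6 to Morf4l2 (0.992).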

How the data were processed

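Gene counts were deposited by the authors as raw whole numbers, 1 table per experiment, from TruSeq stranded mRNA libraries of Trizol-extracted RNA, per the labels' protocols. Per the submitters' processing notes, HISAT2 and DESeq were used with GRCm38. Not given in the sources used here: versions, counting tool, annotation, use of strand. From the deposited counts, CPM scaled by TMM and log2 values (prior count 2) were computed here. CPM per kb used merged exon lengths of GENCODE M21. Low genes were removed with filterByExpr (min.count 10, min.total.count 15), and the rest went into edgeR 4.0.16 (quasi-likelihood, robust) in R 4.3.3, on the whole table, with Benjamini-Hochberg p-values called at 0.05. The experiments were fitted separately, and their difference over genes in both tables.

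Deviations of mCKO and CTR1 libraries with the same number correlated (r = 0.464, 0.532 and 0.823 for replicates 1, 2 and 3), over the limit of 0.1 for pairing, as did crossed replicates 1 and 2 (0.529 and 0.553). The labels do not say what the numbers mark. No 2 libraries agreed within sampling noise (lowest chi-square per degree of freedom 6.49).

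Values in every library are given for genes called in any comparison, for genes without overlap in both experiments, and for the 5 ligands and 5 receptors highest per kb. The other named genes were some of the called list genes with the smallest adjusted p, not always the first of their list. Further genes were chosen after their values were seen, such as Cxcl9, Cxcl10, Ccl5, Ccl11, Ccr1 in mCKO and Fyco1. The chemokine genes and all lists were chosen with earlier results of these data known. The fits were checked on simulated counts of independent libraries with no shift between replicates. That check does not bear on how the replicate block handles such a shift. Some genes, 2 of them of the naming pattern, are not reported here. Alternatives were other scaling (DESeq2 size factors, library sizes only), no filter, DESeq2 1.42.0, limma-voom (limma 3.58.1), the replicate block, and leaving out libraries.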

Additional observations from a re-analysis of the deposited data

Results flagged for a closer look

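The effect of the knockout differed between the constitutive and the inducible experiment for 10 chemokine genes, tested as the mCKO effect minus the iCKO effect on the log2 scale (edgeR, adjusted p under 0.05). It was 1.04 for Ackr3 and 1.37 for Ccl27a. For the ligands it was -5.19 for Ccl7, -4.17 for Ccl2, -3.58 for Ccl12 and -3.49 for Cxcl1. For the receptors it was -8.30 for Cxcr6, -3.46 for Cxcr2, -3.35 for Ccr1 and -1.56 for Cx3cr1. Cxcr6 and Cxcr2 could pass the filter of this fit only by being high in iCKO. The call for Cx3cr1 was lost without mCKO replicate 1, iCKO replicate 2, CTR2 replicate 2 or CTR2 replicate 3 (adjusted p between 0.052 and 0.057). The call for Cxcr2 was lost without mCKO replicate 2, CTR1 replicate 3, CTR2 replicate 2 or CTR2 replicate 3 (0.051 to 0.12), without both replicate 3 libraries of mCKO and CTR1 and with limma-voom (0.051 each). Tamoxifen, table and form of Cre cannot be told apart from the model, nor can age, which is not given for iCKO and CTR2.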

How the results depend on the processing

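The number of chemokine genes called in mCKO depended on replicate 3 and on the block. It was 0 higher without the block and 8 with the replicate block, 4 without both replicate 3 libraries, 10 for the block with library sizes only, and 9 for the block without a filter. In the same order, 0%, 7.32%, 3.85%, 11.8% and 6.12% of all genes tested were called higher. With the block and the same-numbered pair of replicate 1, 2 or 3 left out (chosen after seeing the data), 6, 7 and 1 chemokine genes were called higher. The shares of all genes were then 5.69%, 4.79% and 1.63%. Leaving out single libraries without the block called 0, and the log2 fold change then ran between -0.20 and 1.88 for Ccl2 and between -0.37 and 1.24 for Ccl21a, below 0 without mCKO replicate 3. In iCKO the count was 20 higher and 1 lower under both other scalings, DESeq2, limma-voom and the replicate block (also with library sizes only, chosen after seeing the data), and 24 higher without a filter. Of all genes tested, 22.5% to 33.9% were called higher in these settings, and 20.3% without a filter. Leaving out single libraries gave 19 to 22 higher and 1 to 3 lower, with 3 without iCKO replicate 3. The share of all genes called higher was then 17.5% to 25.7%. The numbers do not pair iCKO with CTR2 (r = 0.058, -0.090 and -0.161). In the difference between models, the genes with the smaller mCKO effect numbered 8, or 13 with the replicate block, 13 without mCKO replicate 3, and 6 to 13 over single libraries left out. In the same order, 9.88%, 13.3%, 11.2% and 6.47% to 11.5% of all genes tested were called in that direction. The cause was not tested. With library sizes only, the median log2 fold change of all genes in iCKO was 0.24, against 0.03 with TMM. The share of calls that were higher was 71.5% against 56.4%, and 34% against 52.6% in the difference. Depth limits statements on genes with under about 10 counts.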
